A study of Mus musculus with 14 samples.

Results

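The surface markers that stage B cell progenitors are 8 genes, chosen by name: Ptprc, Ly6d, Spn, Enpep, Cd24a, Bst1, Cd93 and Il2ra. All 8 were measured among 18193 genes, and they were read by 18 of the 34945 probe sets that carry 1 gene symbol. Each gene was followed through its lead probe set, the one with the highest mean over all arrays, and every other probe set was set beside it. Affymetrix 3' arrays had been run on RNA of sorted mouse bone marrow cells, with 14 arrays in 6 groups. Pax5KO engrafted cells (3 arrays) were B220+ λ5 reporter+ cells taken from irradiated wild type hosts 4 weeks after transfer of day 15 fetal liver that lacked Pax5, the factor that commits lymphoid cells to the B lineage. WT engrafted cells (3 arrays) came through the same transfer and the same gate from fetal liver with intact Pax5, and carried the same reporter. From C57Bl6 mice with no transplant came Ly6D- and Ly6D+ common lymphoid progenitors (CLP), ProB cells and PreB cells, with 2 arrays for each. Age was given as 8 to 12 weeks for all groups, and the labels call each array a biological replicate without saying whether animals were pooled. The extent of the Pax5 deletion is not given in the labels, which also name no gate for ProB and PreB cells, nor for the CLP beyond Ly6D.

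B cell development in the marrow is followed by flow cytometry through proteins that appear and disappear on the cell surface. In the common scheme B220, a form of the phosphatase CD45 encoded by Ptprc, marks the whole lineage. CD43 (Spn) is high on pro-B cells and low on small pre-B cells, the heat stable antigen CD24 (Cd24a) increases with maturation, and BP-1 (Enpep) and BP-3 (Bst1) come up at the pro-B and pre-B stages. CD25 (Il2ra) is used for pre-B cells, AA4.1 (Cd93) for early and immature cells, and Ly6D splits lymphoid progenitors into those that still have several fates and those directed to the B lineage.

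Values are log2 signals as deposited. They share a floor at 2.32, and groups whose arrays all fell within 0.5 of it are called at the floor. Against such a group the floor hides how low the signal was, so the difference tends to understate the change. The words "at least" refer to the floor alone, and the difference remains an estimate with sampling error. Groups at the floor also add little spread to the fit, which makes the SE of such genes smaller. In these bulk samples fewer cells with a transcript and less transcript per cell cannot be told apart. Differences were tested with limma over all genes and called at an adjusted p under 0.05. Some arrays stood apart. The actin control differed between its 3' and 5' probe sets, a sign of RNA length, by 6.71 and 7.27 on the PreB arrays, 2.73 and 3.67 on the ProB arrays and 5.57 on Ly6D+ CLP array 2. Among engrafted cells the arrays numbered 3 had the largest such values for Gapdh, 5.79 in Pax5KO and 5.44 in WT cells, against 3.90 or less on the other 4. Xist, the X-inactivation transcript of female cells, was above 10.7 on the Pax5KO and ProB arrays and WT array 3. It was below 2.74 elsewhere, so Xist moved with several of the comparisons. WT engrafted cells alone held both levels. A term for high Xist therefore rests on WT array 3 against the other WT arrays. Such a term cannot separate Xist from stage, or from the RNA length of that array. Granulocyte and monocyte markers, the list of other cells that moved most, averaged 7.11 to 7.27 on the PreB arrays and 2.89 to 2.90 on the ProB arrays.

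Enpep and Il2ra were the members that went between the floor and clear signal, and their promoters are shown for that reason. RefSeq (GRCm38.p6) promoter windows of 300 bases, most of them before a gene's start, were at hand for 4 of the 8 members. The Enpep window lies at chr3:129332700-129332999 on the minus strand and that of Il2ra at chr2:11642542-11642841 on the plus strand. Capitals mark matches to the E-box CANNTG, the motif of E proteins.
Enpep: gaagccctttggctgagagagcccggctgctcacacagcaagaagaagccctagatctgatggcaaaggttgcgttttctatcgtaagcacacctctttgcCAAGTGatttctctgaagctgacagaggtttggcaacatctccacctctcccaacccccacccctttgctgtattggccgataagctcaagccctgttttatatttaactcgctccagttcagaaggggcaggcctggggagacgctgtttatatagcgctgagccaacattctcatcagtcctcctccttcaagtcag
Il2ra: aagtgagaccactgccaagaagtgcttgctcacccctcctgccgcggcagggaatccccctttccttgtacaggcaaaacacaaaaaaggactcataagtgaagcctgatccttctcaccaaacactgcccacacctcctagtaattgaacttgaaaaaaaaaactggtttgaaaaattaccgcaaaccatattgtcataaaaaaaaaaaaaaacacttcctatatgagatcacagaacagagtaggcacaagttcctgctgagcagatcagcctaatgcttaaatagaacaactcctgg
Searched on both strands, the Enpep window held 1 E-box and the Il2ra window none, against 72.3% of all 32851 promoter windows with at least 1. Neither window held the Ebf1 motif (0.904% of windows) or the Ikaros core TGGGAA (25.6% of windows). Matches of different motifs may share bases.

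Enpep, the gene of the aminopeptidase BP-1, drew the sharpest line between the groups. Its single probe set read 2.48 on each of the 3 Pax5KO arrays, and 8.01, 7.83 and 8.14 on the WT engrafted arrays. Among cells without transplant it read 2.48 on all 4 CLP arrays, 9.01 and 8.77 in ProB cells, and 5.78 and 6.03 in PreB cells. Pax5KO cells and both CLP groups were thus at the floor together, and ProB, WT engrafted and PreB cells followed each other downward from the top without overlap.

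Enpep fell by at least 5.51 in Pax5KO relative to WT engrafted cells (SE 0.09, limma adjusted p = 1.36e-08). Relative to ProB cells it fell by at least 6.41 (SE 0.10, limma adjusted p = 1.77e-08). It rose by at least 6.41 in ProB cells relative to Ly6D+ CLP (SE 0.11, limma adjusted p = 3.84e-08). It was lower in PreB than in ProB cells, by -2.99 (SE 0.11, limma adjusted p = 1.31e-06). WT engrafted cells stood between these stages, with -0.90 relative to ProB (SE 0.10, limma adjusted p = 0.00195) and 2.09 relative to PreB cells (SE 0.10, limma adjusted p = 8.59e-06). The fit shares 1 spread over all groups, and the SD was 0.00 in the groups at the floor. These SEs and p-values are thus smaller than the SDs of 0.16 to 0.17 in the other groups would give. With only the 2 groups in the fit, ProB cells against Ly6D+ CLP was not called (limma adjusted p = 0.0544). WT engrafted against ProB cells lost its call in 1 of 17 alternatives (limma adjusted p = 0.130). The BP-1 protein is used to mark cells that follow the earliest pro-B cells, and its transcript was highest in the group labelled ProB.

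**Figure D1:**
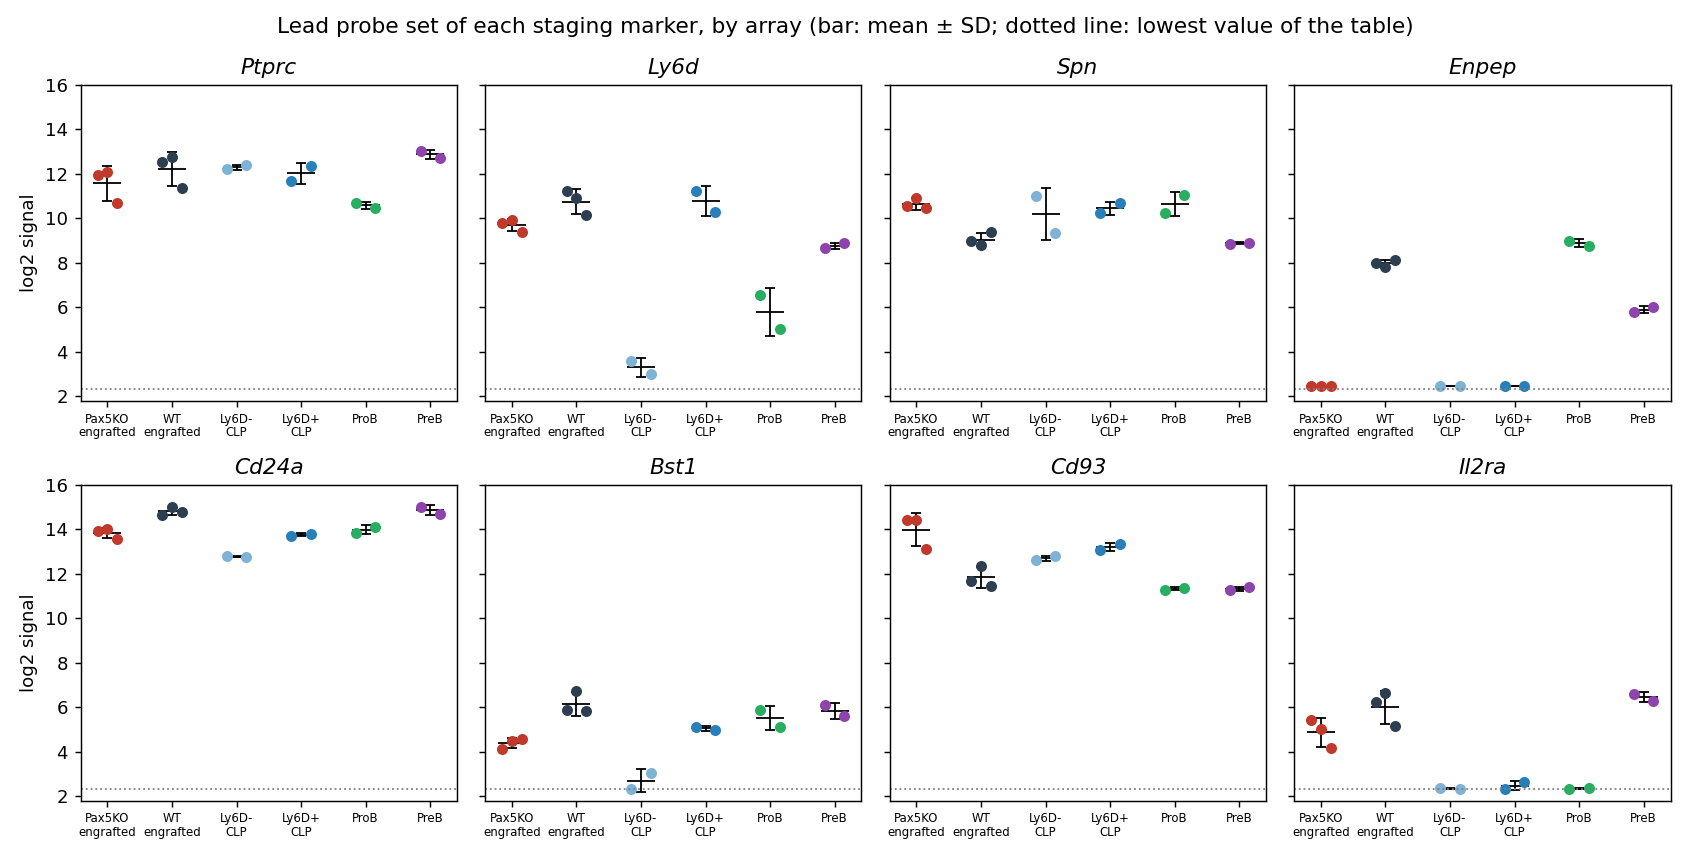
Log2 signal (vertical axis) of the lead probe set of each of the 8 staging markers in the 6 groups (horizontal axis). Points are arrays, bars the group mean ± SD over 3 arrays in engrafted groups and 2 in the others, and the dotted line the lowest value of the table. Enpep lies just above that line in Pax5KO and CLP cells, and Il2ra lies on or near it in CLP and ProB cells.

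Il2ra, the α chain of the interleukin-2 receptor known as CD25, split the groups in another way. Its lead probe set read 5.42, 5.03 and 4.16 in Pax5KO cells, and 6.22, 6.62 and 5.17 in WT engrafted cells. It was at the floor in Ly6D- CLP (2.35 and 2.32), Ly6D+ CLP (2.32 and 2.62) and ProB cells (2.32 and 2.35), and read 6.61 and 6.30 in PreB cells. PreB and WT engrafted cells overlapped, Pax5KO and WT engrafted cells overlapped, and the lowest Pax5KO array was 1.54 above the highest CLP array.

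Il2ra was higher in PreB than in ProB cells by at least 4.12 (SE 0.49, limma adjusted p = 0.00122) and in WT engrafted than in ProB cells by at least 3.66 (SE 0.45, limma adjusted p = 0.00276). Pax5KO cells also exceeded ProB cells, by 2.53 (SE 0.45, limma adjusted p = 0.0139; 0.0632 without ProB array 2), and Ly6D+ CLP, by 2.40 (SE 0.45, limma adjusted p = 0.0356). The second of these was lost when Pax5KO array 1 or 2, or Ly6D+ CLP array 1 or 2, was left out, at limma adjusted p of 0.104, 0.119, 0.0767 and 0.0637. The mean of both probe sets gave smaller differences, 1.43 against ProB cells (limma adjusted p = 0.0159) and 1.36 against Ly6D+ CLP (limma adjusted p = 0.0338). On the dimmer probe set alone the means were close together, 2.69 in Pax5KO cells and 2.37 in both ProB cells and Ly6D+ CLP.

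Between the engrafted groups the lead Il2ra probe set differed by -1.13 (SE 0.40) and was not called (limma adjusted p = 0.184). With the replicate number as a block it was called at the same difference (SE 0.16, limma adjusted p = 0.0107), and it was also called without WT array 3 (-1.55, limma adjusted p = 0.0387). The dimmer probe set read 2.64, 3.06 and 2.37 in Pax5KO cells and 3.87, 4.26 and 4.28 in WT engrafted cells, with no overlap. Fitted as a feature of its own among all probe sets, it was lower in Pax5KO cells by -1.45 (SE 0.19, limma adjusted p = 0.00406). Regulatory and activated T cells carry CD25 too. The mean of 14 T and NK cell markers was 3.24 to 3.38 on the Pax5KO and 2.45 to 2.71 on the WT engrafted arrays, and 3.71 to 4.12 on the PreB and 2.79 to 2.91 on the ProB arrays. Of these 14 markers 2 were called higher in Pax5KO than in WT engrafted cells, where 3.64% of all genes were. In PreB relative to ProB cells 3 were called higher and 1 lower, against 6.35% and 5.19% of all genes. Gzma, a granzyme of cytotoxic cells, read 10.31 to 10.95 on the PreB and 2.35 to 2.47 on the ProB arrays. The T cell receptor genes Cd3d, Cd3e and Cd3g, and Cd8a, Ncr1 and Foxp3, were at the floor in all 6 groups. The part of these cells in the Il2ra results was not tested.

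Bst1 encodes BP-3, a cell surface enzyme that makes cyclic ADP-ribose, and was read by a pair of probe sets of similar brightness. The lead probe set read 4.14, 4.47 and 4.59 in Pax5KO cells and 5.86, 6.74 and 5.83 in WT engrafted cells. Among CLP the values were 2.32 and 3.05 without Ly6D and 5.13 and 4.97 with it, and further on 5.89 and 5.13 in ProB and 6.10 and 5.59 in PreB cells. On this probe set Pax5KO cells thus lay apart from all other groups, between Ly6D- and Ly6D+ CLP. WT engrafted, PreB, ProB and Ly6D+ CLP formed a row in which each group touched or overlapped the next. The second probe set read 3.84, 3.60 and 2.32 in Pax5KO cells, which overlapped both CLP groups there.

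Bst1 was lower in Pax5KO than in WT engrafted cells by -1.74 (SE 0.32, limma adjusted p = 0.0147; -1.61 and 0.0648 without Pax5KO array 1), and by -2.73 on the second probe set (SE 0.40, limma adjusted p = 0.00658). The stage at which it first appeared differed between probe sets. The lead rose by 2.37 in Ly6D+ relative to Ly6D- CLP (SE 0.40, limma adjusted p = 0.0248; 0.0515 without Ly6D- CLP array 1), where the second read 2.32 and 2.99 in Ly6D+ and 2.99 and 2.32 in Ly6D- CLP. From Ly6D+ CLP to ProB cells the second rose by 2.95 (SE 0.49, limma adjusted p = 0.0118), to 5.38 and 5.84, while the lead differed by 0.46 (SE 0.40, limma adjusted p = 0.611). Averaging the 2 probe sets moved the call from the first step (1.18, limma adjusted p = 0.0549) to the second (1.70, limma adjusted p = 0.00415). Over the 14 arrays the 2 probe sets correlated at r = 0.72, a description of arrays that share groups.

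**Figure D2:**
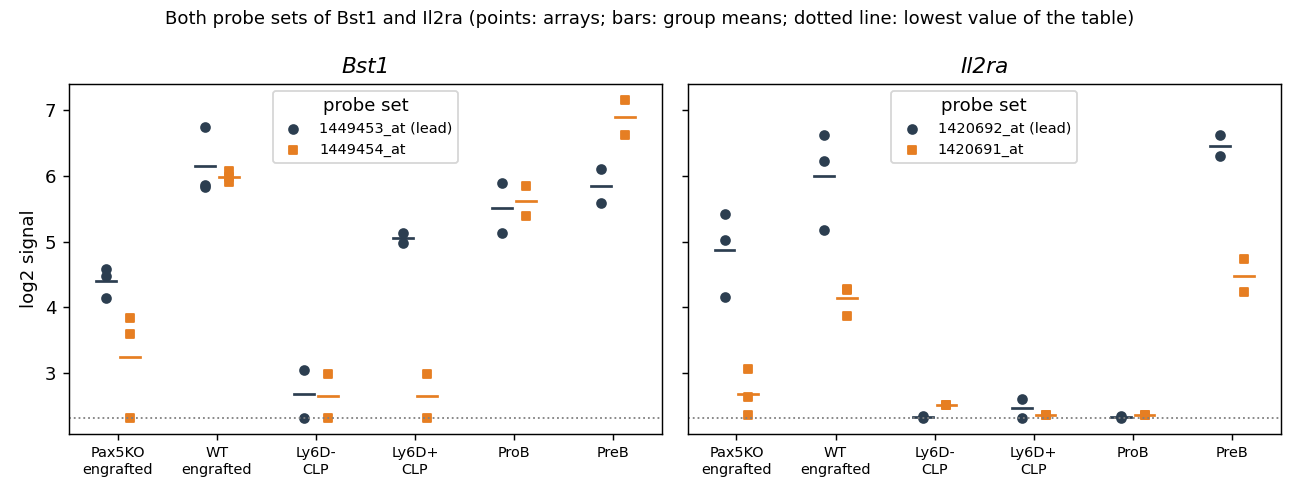
Log2 signal (vertical axis) of both probe sets of Bst1 (left) and Il2ra (right) in the 6 groups (horizontal axis), with a point per array, a bar at each group mean and a dotted line at the lowest value of the table. The Bst1 probe sets part in Ly6D+ CLP, with means of 5.05 for the lead and 2.66 for the second, and come close in ProB cells.

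Ly6d, a small membrane protein anchored by lipid, was the sort marker that separates the CLP groups. Its signal was 11.25 and 10.30 on the Ly6D+ CLP arrays, against 3.61 and 3.02 on the Ly6D- ones, so the transcript followed the gate on the protein with a difference of 7.46; since the gate chose the cells, this describes the sort. It read 9.78, 9.93 and 9.39 in Pax5KO cells and 11.22, 10.90 and 10.14 in WT engrafted cells. In ProB cells it read 6.55 and 5.02, and in PreB cells 8.68 and 8.88. From the top the order was Ly6D+ CLP and WT engrafted cells, which overlapped, then Pax5KO, PreB, ProB and Ly6D- CLP, each apart from the next.

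ProB cells therefore held less Ly6d transcript than Ly6D+ CLP and PreB cells. Ly6d was lower by 4.99 in ProB cells than in Ly6D+ CLP (SE 0.55, limma adjusted p = 0.00121). Since Ly6D+ CLP were gated on the protein, the size of that difference also depends on the gate. Ly6d rose by 2.99 in PreB relative to ProB cells (SE 0.55, limma adjusted p = 0.00972). It was higher than in ProB cells by 3.92 in Pax5KO (SE 0.50, limma adjusted p = 0.00311) and by 4.97 in WT engrafted cells (SE 0.50, limma adjusted p = 0.00120). WT engrafted cells exceeded PreB cells by 1.98 (SE 0.50), which was not called (limma adjusted p = 0.0514; 2.28 and 0.0494 without WT array 3). The ProB arrays carried high Xist and the PreB and CLP arrays did not. A term for high Xist rests on WT array 3 and cannot separate Xist from stage. With that term the difference of PreB from ProB cells was 2.07 (limma adjusted p = 0.296). Between the engrafted groups Ly6d differed by -1.05 (SE 0.45, limma adjusted p = 0.310).

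Ptprc, the CD45 phosphatase whose B220 form was gated on in the engrafted cells, was high everywhere. Its lead probe set read 11.96, 12.10 and 10.68 in Pax5KO cells and 12.55, 12.74 and 11.37 in WT engrafted cells, with array 3 the lowest of each group. The Ly6D- CLP arrays read 12.21 and 12.38, the Ly6D+ CLP arrays 11.70 and 12.34, the ProB arrays 10.71 and 10.46, and the PreB arrays 13.02 and 12.73. PreB cells had the highest mean and overlapped WT engrafted cells alone, through WT array 2. By their means the other groups overlapped in a row from Ly6D- CLP through WT engrafted, Ly6D+ CLP and Pax5KO to ProB cells. Probe sets of the 3' end read CD45 as a whole, so these levels are not those of the B220 form.

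The difference between the engrafted groups was -0.64 (SE 0.45, limma adjusted p = 0.692; 95% interval of that fit, without the pairing of replicate numbers, from -1.67 to 0.39). With the replicate number as a block the SE was 0.17 and the difference was again not called (limma adjusted p = 0.0940). The dimmer probe set differed by -1.51 (SE 0.48, limma adjusted p = 0.176). Ptprc rose by 2.29 in PreB relative to ProB cells (SE 0.55, limma adjusted p = 0.0304). That call ended without PreB array 2 or 3 or ProB array 1 or 2, at limma adjusted p of 0.129, 0.0895, 0.0669 and 0.137. The difference was 1.01 with a term for high Xist, which rests on WT array 3 (limma adjusted p = 0.741). WT engrafted cells exceeded ProB cells by 1.64 (limma adjusted p = 0.122), and by 2.06 without WT array 3 (limma adjusted p = 0.0454).

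Cd24a, the small glycoprotein of the heat stable antigen, was the brightest member, and its level was called higher at the first and the last of the 3 steps between stages. Its lead probe set read 13.94, 13.99 and 13.55 in Pax5KO cells and 14.64, 15.01 and 14.77 in WT engrafted cells. Along the stages the Ly6D- CLP arrays read 12.80 and 12.74, the Ly6D+ CLP arrays 13.71 and 13.80, the ProB arrays 13.84 and 14.12, and the PreB arrays 15.02 and 14.70. PreB and WT engrafted cells overlapped at the top, Pax5KO cells in the middle overlapped both ProB cells and Ly6D+ CLP, and Ly6D- CLP stood below them.

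Cd24a was lower in Pax5KO than in WT engrafted cells by -0.98 (SE 0.15, limma adjusted p = 0.00549), and by -0.88 and -1.60 on the other probe sets (limma adjusted p = 0.0109 and 0.0422). It was higher in PreB than in ProB cells by 0.88 (SE 0.18, limma adjusted p = 0.0160; 0.0899 without PreB array 2 and 0.0670 without ProB array 1). With a term for high Xist, which rests on WT array 3, that difference was 0.82 (limma adjusted p = 0.258). From Ly6D+ CLP to ProB cells it was 0.23 (SE 0.18, limma adjusted p = 0.566). It was higher in Ly6D+ than in Ly6D- CLP by 0.98 (SE 0.18, limma adjusted p = 0.0404). Leaving out Ly6D- CLP array 1 or 2 or Ly6D+ CLP array 2 ended that call (limma adjusted p = 0.0523, 0.0745 and 0.0954). Without genes under 5 in every group neither difference was called, at limma adjusted p of 0.135 between the CLP and 0.0607 for PreB against ProB cells. Of 16 alternatives, 10 ended the call between the CLP and 6 that between PreB and ProB cells. The 3 probe sets moved together, at r of 0.95 and 0.96 with the lead over the 14 arrays. The dimmest of them spanned more, from a mean of 8.40 in Ly6D- CLP to 13.65 in PreB cells, and was also called at both of these steps. WT engrafted cells exceeded ProB cells by 0.83 (SE 0.17, limma adjusted p = 0.0280; 0.0937 without ProB array 1, 0.0785 without WT array 2 and 0.0521 without WT array 3). With equal array medians above the floor it was 0.49 (limma adjusted p = 0.0871).

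Spn, the sialoglycoprotein CD43, had its lowest means in WT engrafted and PreB cells. It read 10.55, 10.94 and 10.47 in Pax5KO cells and 8.97, 8.79 and 9.38 in WT engrafted cells, with no overlap. The CLP and ProB arrays lay between 9.36 and 11.03, and PreB cells read 8.86 and 8.91. By their means the groups overlapped in a row from Pax5KO through ProB, Ly6D+ CLP, Ly6D- CLP and WT engrafted to PreB cells. Ly6D- CLP array 2, at 9.36, lay below WT array 3, and the other Ly6D- array read 11.01.

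These differences of Spn missed the threshold. They were 1.61 for Pax5KO against WT engrafted cells (SE 0.40, limma adjusted p = 0.0551), -1.76 for PreB against ProB cells (SE 0.49, limma adjusted p = 0.0534) and -1.61 for WT engrafted against ProB cells (SE 0.45, limma adjusted p = 0.0881). All 3 were called when genes under 5 in every group were left out before the fit, at limma adjusted p of 0.0157, 0.0187 and 0.0322. Pax5KO and ProB cells differed by 0.00 (SE 0.45; 95% interval of the fit from -1.02 to 1.02). The other Spn probe set read at most 2.96 on any array and was at the floor in 5 of the 6 groups.

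Cd93, the C-type lectin known as AA4.1, was highest in Pax5KO cells. Its lead probe set read 14.43, 14.39 and 13.11 in Pax5KO cells and 11.69, 12.36 and 11.45 in WT engrafted cells. The Ly6D- CLP arrays read 12.61 and 12.77, the Ly6D+ CLP arrays 13.08 and 13.34, the ProB arrays 11.27 and 11.37, and the PreB arrays 11.25 and 11.39. Pax5KO and Ly6D+ CLP overlapped at the top, Ly6D- CLP and WT engrafted cells followed apart from each other, and ProB and PreB cells overlapped at the bottom.

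Cd93 rose by 2.14 in Pax5KO relative to WT engrafted cells (SE 0.36, limma adjusted p = 0.00890) and by 2.66 relative to ProB cells (SE 0.40, limma adjusted p = 0.00668). It fell by 1.89 in ProB relative to Ly6D+ CLP (SE 0.44, limma adjusted p = 0.0363). That call ended without ProB array 1 or 2 or Ly6D+ CLP array 1 or 2, at limma adjusted p of 0.0943, 0.117, 0.0686 and 0.126. The mean of all 5 probe sets differed by -0.79 (limma adjusted p = 0.306). Of the 4 dimmer Cd93 probe sets, each had a higher mean in Pax5KO than in WT engrafted cells. One of them was called there, by 1.48 (SE 0.20, limma adjusted p = 0.00415), and fell by 1.29 in ProB relative to Ly6D+ CLP (limma adjusted p = 0.0202). On Pax5KO array 3 the lead was the lowest of the 3 arrays, while all 4 dimmer probe sets were the highest, the brightest of these with 12.24 against 11.73 and 11.88.

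**Figure D3:**
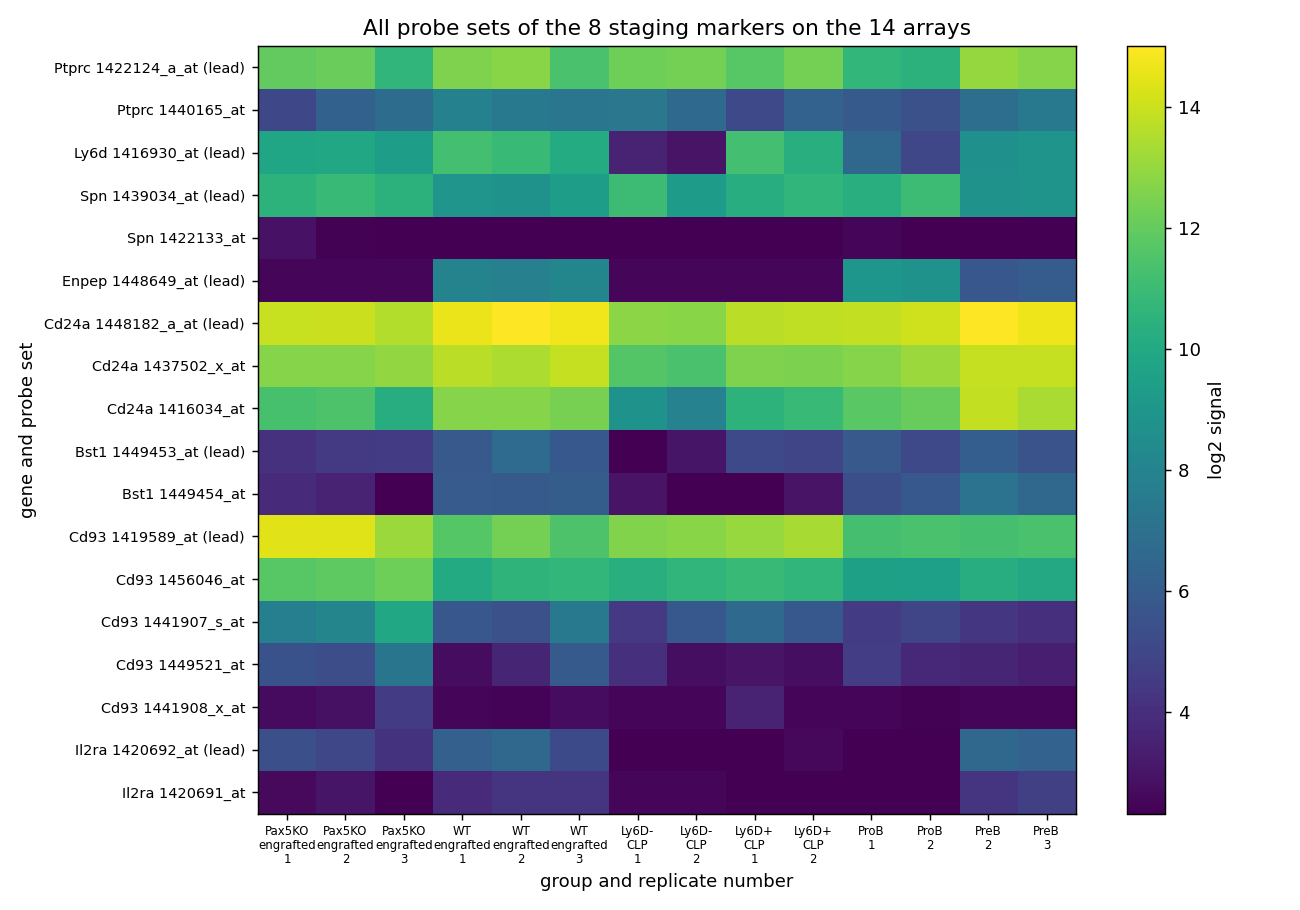
Log2 signal (colour) of all 18 probe sets of the 8 genes (rows, the lead first within each gene) on the 14 arrays (columns, by group and replicate number). The 3 Cd24a probe sets share a pattern, the second Spn probe set is dark throughout, and the lead Cd93 probe set is dimmer on Pax5KO array 3 than on arrays 1 and 2.

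Counted over the lead probe sets, Enpep, Cd24a and Bst1 were lower and Cd93 higher in Pax5KO than in WT engrafted cells. These 4 of 8 members compare with 5.94% of all genes called in that comparison (3.64% higher, 2.29% lower), and the median difference was -1.02 over the members and 0 over all genes. Granulocyte and monocyte markers averaged 3.98 to 4.42 on the Pax5KO arrays and 3.53 to 4.97 on the WT engrafted arrays. With a term for high Xist, estimated within the WT engrafted arrays since no other group held both levels, only Enpep and Cd93 were called. The differences were then -0.94 for Cd24a (limma adjusted p = 0.0626) and -1.43 for Bst1 (limma adjusted p = 0.184).

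From Ly6D- to Ly6D+ CLP, Cd24a and Bst1 rose besides Ly6d, whose call was set by the gate and describes the sort. With Ly6d counted, these were 3 of 8 members against 1.45% of all genes (0.813% higher, 0.638% lower). Median differences were 0.40 over the members, Ly6d among them, and 0 over all genes. Granulocyte and monocyte markers averaged 3.98 to 4.38 on the Ly6D+ and 4.72 to 7.06 on the Ly6D- CLP arrays, and their part in these differences was not tested. From Ly6D+ CLP to ProB cells Enpep rose and Ly6d and Cd93 fell, 3 of 8 against 7.29% of all genes (1.93% higher, 5.36% lower), with medians of 0.03 and 0. Ly6d is among these 3, and Ly6D+ CLP were gated on its protein. From ProB to PreB cells Ptprc, Ly6d, Cd24a and Il2ra rose and Enpep fell, 5 of 8 against 11.5% of all genes (6.35% higher, 5.19% lower), with medians of 0.61 and 0.

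The step to PreB cells moved with several other measures. Of 16 granulocyte and monocyte markers 10 were called higher in PreB than in ProB cells, and none lower, against 6.35% and 5.19% of all genes. S100a8, a granulocyte calcium-binding protein, read 12.02 to 12.85 on the PreB and 3.18 to 3.29 on the ProB arrays. At the floor in PreB cells were Elane, Csf3r and Itgam, and in ProB cells 10 of the 16. Granulocytes and monocytes also carry CD45, CD43 and CD24, among others. The part of such cells and of RNA length in the PreB results was not tested for any member. Xist and stage cannot be told apart at this step, and the term for high Xist rests on WT array 3. With that term Il2ra was higher in PreB than in ProB cells by 2.87 (limma adjusted p = 0.0380). Enpep was lower by -2.77 (limma adjusted p = 4.34e-05), while the Ptprc, Ly6d and Cd24a calls ended. For Il2ra and Enpep these differences were called under every alternative that was run.

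**Figure D4:**
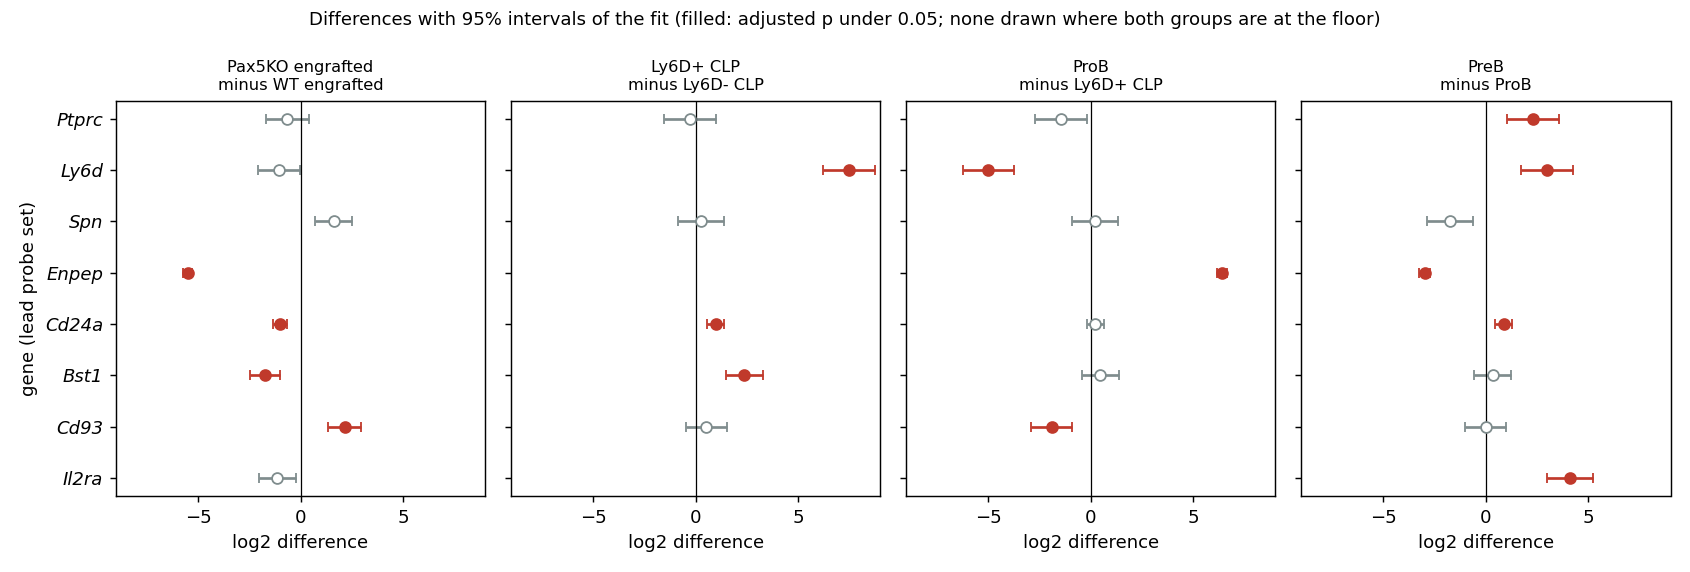
Log2 differences (horizontal axis) of the 8 lead probe sets (vertical axis) in 4 comparisons, with 95% intervals of the fit over all 14 arrays. Filled points have a limma adjusted p under 0.05, and no point is drawn where both groups are at the floor. Enpep points left in Pax5KO against WT engrafted and in PreB against ProB cells, and right in ProB cells against Ly6D+ CLP.

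Set against the stages without transplant, the Pax5KO cells differed from Ly6D+ CLP in 1 of 8 members, Il2ra, where 1.81% of all genes were called (0.781% higher, 1.03% lower). That call was made on the lead probe set and ended in 6 of 17 alternatives. The dimmer Il2ra probe set averaged 2.69 in Pax5KO cells and 2.37 in Ly6D+ CLP. Against ProB cells 4 of 8 members were called, Enpep lower and Ly6d, Cd93 and Il2ra higher, where 5.24% of all genes were called (4.22% higher, 1.02% lower). The WT engrafted cells differed from ProB cells in 4 members, with Ly6d, Cd24a and Il2ra higher and Enpep lower (4.93% of all genes called, 3.63% higher and 1.3% lower). They differed from PreB cells in Enpep alone, which was higher (7.38% of all genes called, 4.52% higher and 2.86% lower). These comparisons share the engrafted arrays, and transplantation cannot be told apart from the group in any of them.

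Against the proteins used for sorting, the Ly6d transcript kept to the gate for Ly6D among CLP. Ptprc was high in both B220+ engrafted groups but also in the CLP, and its levels are not those of the B220 form. Pax5KO cells, gated as B220+ and λ5 reporter+, differed from Ly6D+ CLP by -1.07 in Ly6d (limma adjusted p = 0.429). Enpep was at the floor in Pax5KO cells, and Spn and Cd93 had their highest means there. The lead Il2ra probe set lay between the floor and the PreB level. WT engrafted cells through the same gate had low Spn, Enpep between ProB and PreB, and Il2ra at the PreB level. Igll1, the λ5 gene behind the reporter, averaged 12.88 in Pax5KO and 11.98 in WT engrafted cells, both gated on the reporter. It averaged 12.39 in Ly6D+ and 4.32 in Ly6D- CLP, 13.20 in ProB and 8.71 in PreB cells, and Pax5KO and WT engrafted cells differed by 0.90 (limma adjusted p = 0.251).

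Other surface proteins used to stage or gate these cells were taken from a list of 30, of which 25 were measured. Between Pax5KO and WT engrafted cells 4 rose and 10 fell, with a median of -0.41, where 3.64% of all genes were called higher and 2.29% lower. The largest falls were those of Ms4a1 (CD20), Cd72 and Cd2, which averaged 2.64, 3.02 and 2.34 in Pax5KO cells and 11.85, 12.19 and 8.78 in WT engrafted cells. The largest rises were those of the receptors Flt3, Cd27 and Kit. Cd27 averaged 6.65 in Pax5KO and 2.67 in WT engrafted cells, a rise of 3.99 (SE 0.28, limma adjusted p = 7.58e-05). Kit rose by 3.04 (limma adjusted p = 0.0279), but missed the threshold when Pax5KO array 1 or 2, or WT array 1 or 3, was left out (0.110, 0.102, 0.0974 and 0.0847). The mean of its probe sets differed by 1.53 (limma adjusted p = 0.0412).

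At the steps without transplant, 5 of these 25 rose and 1 fell from Ly6D- to Ly6D+ CLP, against 0.813% and 0.638% of all genes. The rises were led by the surrogate light chain genes Vpreb1 and Igll1, by 8.24 and 8.07. Averaged over its probe sets, Igll1 differed by 4.25 (limma adjusted p = 0.000398). The fall was that of Cd34, a marker of early progenitors, by -1.74 (limma adjusted p = 0.0327; 0.0619 without Ly6D- CLP array 1), and its size was -1.11 without Ly6D+ CLP array 1 and -2.36 without array 2. From Ly6D+ CLP to ProB cells 4 rose and 4 fell, against 1.93% and 5.36% of all genes. Cd22, an inhibitory receptor, rose by 5.71 (SE 0.48, limma adjusted p = 0.000408; 3.65 as the mean of its probe sets) and Cd34 fell by at least 7.75 to the floor. From ProB to PreB cells 8 rose and 2 fell, against 6.35% and 5.19% of all genes. Cd2, an adhesion receptor that marks pre-B cells, averaged 9.59 in PreB cells and was at the floor in ProB cells, a difference of at least 7.09 (SE 0.37, limma adjusted p = 1.21e-05), and Igll1 fell by 4.49 (SE 0.44, limma adjusted p = 0.000433). Averaged over its probe sets, Igll1 differed by -1.61 (limma adjusted p = 0.0145). The medians of the list at these steps were 0.01, 0.07 and 0.20.

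Among 12 measured partners and relatives of the members, 1 rose and 3 fell in Pax5KO relative to WT engrafted cells, against 3.64% and 2.29% of all genes. Siglecg, a receptor that binds CD24, averaged 3.84 in Pax5KO and 10.50 in WT engrafted cells, a difference of -6.66 (SE 0.27, limma adjusted p = 3.09e-06). Thbd, a lectin of the same family as Cd93, averaged 2.70, at the floor, in Pax5KO and 7.82 in WT engrafted cells, a difference of -5.11 (SE 0.52, limma adjusted p = 0.000602), opposite to Cd93. Hnrnpll, a factor known for skipping the exons that the B220 form keeps, rose by 4.52 (SE 0.92, limma adjusted p = 0.0222). Ptprcap, which binds CD45, differed by -0.99 (SE 0.20, limma adjusted p = 0.0221). Both of these calls ended with the replicate number as a block (limma adjusted p = 0.0550 for Hnrnpll and 0.0535 for Ptprcap). They also ended without any 1 of Pax5KO arrays 1, 2 and 3 and WT arrays 1 and 3, at limma adjusted p from 0.0518 to 0.0919. Il2rb, the β chain that pairs with CD25, was at the floor in all 6 groups.

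The members did not share a single pattern over the 14 arrays. Cd24a and Bst1 were the most alike (r = 0.89), followed by Cd24a and Il2ra (r = 0.80), and Enpep and Cd93 were the most opposed (r = -0.81). Among 3626 genes that reached 6 in at least 1 group and spanned 2 or more between groups, those most like Enpep were Rsph1, Gpsm2 and Igkv8-30 (r = 0.99, 0.96 and 0.96). Those most like Il2ra were Ube2h, H2bc21 and Ets2 (r = 0.95, 0.93 and 0.93), and those most like Ly6d were Blnk, Fryl and Cyth1 (r = 0.90, 0.89 and 0.89). Bst1 was most like Slamf6, Cd79a and D6Wsu163e (r = 0.94, 0.93 and 0.92), Cd24a most like Ifi209, Syvn1 and Spib (r = 0.96, 0.96 and 0.95), and Cd93 most like Pqlc3, Gna12 and Il17ra (r = 0.95, 0.94 and 0.93). For Ptprc these were Clk1, Morc3 and Baz2b (r = 0.96, 0.95 and 0.94), and for Spn Tmem107, Mmachc and Timm10 (r = 0.92, 0.91 and 0.91). These correlations describe arrays that share groups and scaling and carry no test.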

How the data were processed

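RNA was measured on Affymetrix 3' arrays, 14 in 6 groups, mapped by their titles. The authors deposited 1 log2 signal for each of 45101 probe sets per array; RMA, GCRMA and limma are named per the submitters' processing notes, and which of them made the table is not given in the sources used here. No scaling was added to the deposited values. On every array most probe sets (56.0% to 57.8%) lay within 0.5 of the lowest value, so array medians do not show whether the arrays were scaled alike, and upper quartiles ran from 5.39 to 5.98. No detection call was used, and the number of arrays limits the precision.

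Symbols came from the platform annotation, updated through the RefSeq table of GRCm38.p6 (34741 of 34945 probe sets with 1 symbol matched). A gene was represented by its probe set of highest mean, which gave 18193 genes. A mean per group was fitted with limma 3.58.1 in R 4.3.3 over all 14 arrays (8 residual degrees of freedom), with two-sided tests adjusted by Benjamini-Hochberg over all genes in each of 8 comparisons, and tested on simulated data. Probe sets other than the lead were tested in a fit of all 34945.

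The 8 members and the gene lists were chosen with earlier results of these data known. All members are named. From the lists of other staging markers and of partners, the 3 largest rises and falls among called genes were eligible, and for likeness the 3 genes of highest Pearson r. Alternatives covered the probe set, filters on dim genes, normalization, the samples fitted, array weights, an intensity trend, the replicate number as a block, Xist, and each array left out. Deviations from the group means of engrafted arrays with the same number correlated at r = 0.16, 0.33 and 0.56 over 8713 genes. The highest was that of the arrays numbered 3, which also shared large Gapdh values, and Pax5KO array 1 was closer to WT array 2 (r = 0.41). Whether the numbers pair these groups was thus not settled. The main fit used no block, and the block was run as an alternative. Replicates are called biological in the labels, and p-values measure the spread between these arrays.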

Additional observations from a re-analysis of the deposited data

How the results depend on the processing

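Of the 25 called differences of members, 5 stayed called in every alternative run (Enpep in 4 comparisons and Il2ra in PreB against ProB cells), and none of the 25 changed sign. The cause of the changes below was not tested, except that fitting 2 groups alone leaves fewer arrays, and that setting equal medians above the floor shifts the floor itself. That scaling moved the median of all genes by 0.31 for ProB cells against Ly6D+ CLP, by -0.11 and -0.42 for Pax5KO cells against Ly6D+ CLP and ProB cells, and by -0.34 and -0.30 for WT engrafted against ProB and PreB cells. With only the 2 groups in the fit, 697 genes and 2 members were called for Pax5KO against WT engrafted cells, 1 and 0 for Ly6D+ against Ly6D- CLP, 3 and 0 for ProB cells against Ly6D+ CLP, and 487 and 2 for PreB against ProB cells. The counts were 56 and 0 for Pax5KO cells against Ly6D+ CLP, 191 and 1 against ProB cells, 100 and 0 for WT engrafted against ProB cells, and 460 genes against PreB cells. Array weights gave 3065 genes and 7 members for Pax5KO against WT engrafted cells, 102 and 1 for the CLP, 368 genes for ProB cells against Ly6D+ CLP, 3 members for PreB against ProB cells, and 174 and 0 for Pax5KO cells against Ly6D+ CLP. With every probe set as its own feature 414 were called between the CLP, and with equal medians 7564 genes for Pax5KO against ProB cells. The term for high Xist left 2 members for Pax5KO against WT engrafted cells, 693 genes for ProB cells against Ly6D+ CLP, and 746 genes and 2 members for PreB against ProB cells. For WT engrafted against PreB cells 2 members, not 1, were called with averaged probe sets, either filter on dim genes, equal medians, quantile normalization, array weights, an intensity trend, the replicate block and the Xist term. With the replicate block 1 member was called between the CLP, where the numbers do not pair the samples; beside the results named with it in the text, the block changed no called member between the engrafted groups.

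Leaving out 1 array at a time gave 676 (without Pax5KO array 1) to 1034 genes for Pax5KO against WT engrafted cells, 694 to 1144 for the CLP (without Ly6D+ array 2 or 1), 1060 to 2129 for ProB cells against Ly6D+ CLP (the highest without ProB array 1), and 199 to 1247 for Pax5KO cells against Ly6D+ CLP (without Pax5KO array 2 or Ly6D+ array 1). It gave 565 to 1883 for Pax5KO against ProB cells and 489 to 1825 for WT engrafted against ProB cells, the highest of each without ProB array 1 and the lowest without engrafted array 1. Members called ranged from 1 to 3 for the CLP, 3 to 4 for PreB against ProB cells, 0 to 1 for Pax5KO cells against Ly6D+ CLP, and 1 to 2 for WT engrafted against PreB cells.

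Changes of sign occurred among uncalled differences. For Pax5KO against WT engrafted cells Ptprc was 0.21 with the Xist term. Between the CLP, leaving out 1 array gave Ptprc -0.60 to 0.043 and Spn -0.55 to 1.10. For ProB cells against Ly6D+ CLP, Spn was -0.31 with the Xist term and -0.20 to 0.57 without 1 array. For PreB against ProB cells, Bst1 was -0.14 with the Xist term and -0.044 to 0.71 without 1 array, and Cd93 -0.069 to 0.069. For Pax5KO cells against Ly6D+ CLP, Ptprc was 0.84 and Spn -0.31 with the Xist term, Cd24a -0.035 with equal medians, and the ranges without 1 array were -0.76 to 0.0086, -0.023 to 0.40 and -0.011 to 0.21. Against ProB cells Spn was -0.42 with equal medians, -0.23 with quantile normalization, -0.035 with the replicate block and -0.38 to 0.38 without 1 array. For WT engrafted against PreB cells, Spn was -0.14 with equal medians, -0.0083 with the Xist term and -0.0083 to 0.29 without 1 array, Bst1 -0.30 with averaged probe sets, and Cd24a 0.027 with the replicate block and -0.21 to 0.11 without 1 array. Leaving out both engrafted arrays numbered 3, an alternative chosen after seeing the data, gave Ptprc 0.0086 for Pax5KO cells against Ly6D+ CLP and Spn -0.0083 for WT engrafted against PreB cells. Signals near the floor, as those of Bst1 and the dimmer Il2ra probe set, leave little room above background.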
